A study of Bos taurus with 28 samples.

Results

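Genes for the core splicing machinery and for heterogeneous nuclear ribonucleoproteins were compared between livers of ketotic and healthy dairy cows. Genes were taken by symbol from the platform annotation: SNRP genes, SF3A and SF3B genes, SF1, U2AF genes, SRSF genes, HNRNP genes, PRPF genes and LSM genes. This gave 67 genes on 72 probes, out of 8073 genes with a single symbol on the array. All 67 had enough values to be tested, among 6958 tested genes, and 55 of them had a value in all 14 cows.

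Splicing removes introns from pre-mRNA on the spliceosome, a machine built from small nuclear RNAs and their proteins. Sm and LSM proteins form rings on these RNAs, the SF3A and SF3B complexes hold the U2 particle at the branch point, and PRPF proteins join and drive the tri-snRNP of U4, U6 and U5. SR proteins and hnRNPs bind exons and introns and set which sites are used, SR proteins mostly promoting and hnRNPs often repressing a site. Roles given here are known mainly from human and yeast proteins.

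Liver RNA came from multiparous Holstein cows early after calving, 7 with ketosis and 7 healthy, and each cow was measured on 2 dye-swapped arrays against RNA pooled from several cattle tissues. All cows had passed a physical examination on day 4 after calving. In the ketosis group feed was then cut to 50% of the earlier intake, which began on day 5 by the design text, and on day 4 by the labels, and lasted until clinical signs or day 14 at most. Healthy cows ate ad libitum, and the restricted cows were treated and fed freely again only after the restriction. The model is thus underfeeding of cows that were healthy before, so low intake and ketosis cannot be told apart.

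Values are log2 ratios of liver over reference RNA with each array's median at 0, averaged over a cow's 2 arrays. A level below 0 therefore says that a gene's ratio to the tissue pool was below that of the median probe. Levels of different genes are compared only as ratios to the pool, in a description further below, and not as amounts of RNA. A difference is the ketotic mean minus the healthy mean, and a gene passed where the adjusted p of limma (Benjamini-Hochberg over all tested genes) was under 0.05. Whole liver was measured, so fewer cells of a type and less RNA per cell cannot be told apart. Hepatocyte markers lay above genes of muscle and brain on 28 of 28 arrays, as liver over reference requires, with a median log2 gap of 6.07.

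Healthy cow 7 stood apart. Over all probes its values correlated with those of the other cows at r = 0.363 to 0.462, while no pair of the other cows was below 0.716. It was the lowest healthy cow for 23 and the highest for 17 of the 60 genes of the set in which it had a value. Ketotic cow 5 was the lowest ketotic cow for 39 of 63 genes of the set, and for 40.1% of all genes in which it had a value. Where a difference of the set turned sign or its call changed without one of these cows, that is stated beside it.

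In ketotic livers 10 of the 67 genes fell and 2 rose. Over all tested genes 13.4% passed in either direction, 12.4% lower and 0.920% higher. The set's shares were 17.9% in either direction and 14.9% lower, near the array as a whole, so the number of passing genes is not a result about the set. The differences of 43 of the 67 genes lay below 0, or 64.2%, against 67.2% of all genes. The median difference was -0.28 for the set and -0.18 for all genes. At an unadjusted p under 0.05, 25 genes were lower and 3 higher, while 1697 of all 6958 genes were lower and 279 higher. Without healthy cow 7, 16 fell and 2 rose, or 26.9% of the set, where 19.9% of all genes passed, 18.4% lower and 1.50% higher. Without ketotic cow 5, 9 fell and 1 rose, where 9.85% of all genes were lower and 0.630% higher.

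The classes had different medians, though the differences between classes were not tested. The median difference was -0.49 for the 10 LSM genes and -0.47 for the 9 SNRP genes. It was -0.22 for the 11 genes of the SF3, SF1 and U2AF class, -0.15 for the 17 HNRNP genes and -0.13 for the 10 PRPF genes. The 10 SR genes had a median of 0.06. Below 0 lay 9 LSM genes and 8 SNRP genes, against 6 PRPF, 6 SF3, SF1 and U2AF, 10 HNRNP and 4 SR genes. Without healthy cow 7 the SR median was -0.06 and the SF3, SF1 and U2AF median -0.34.

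**Figure D1:**
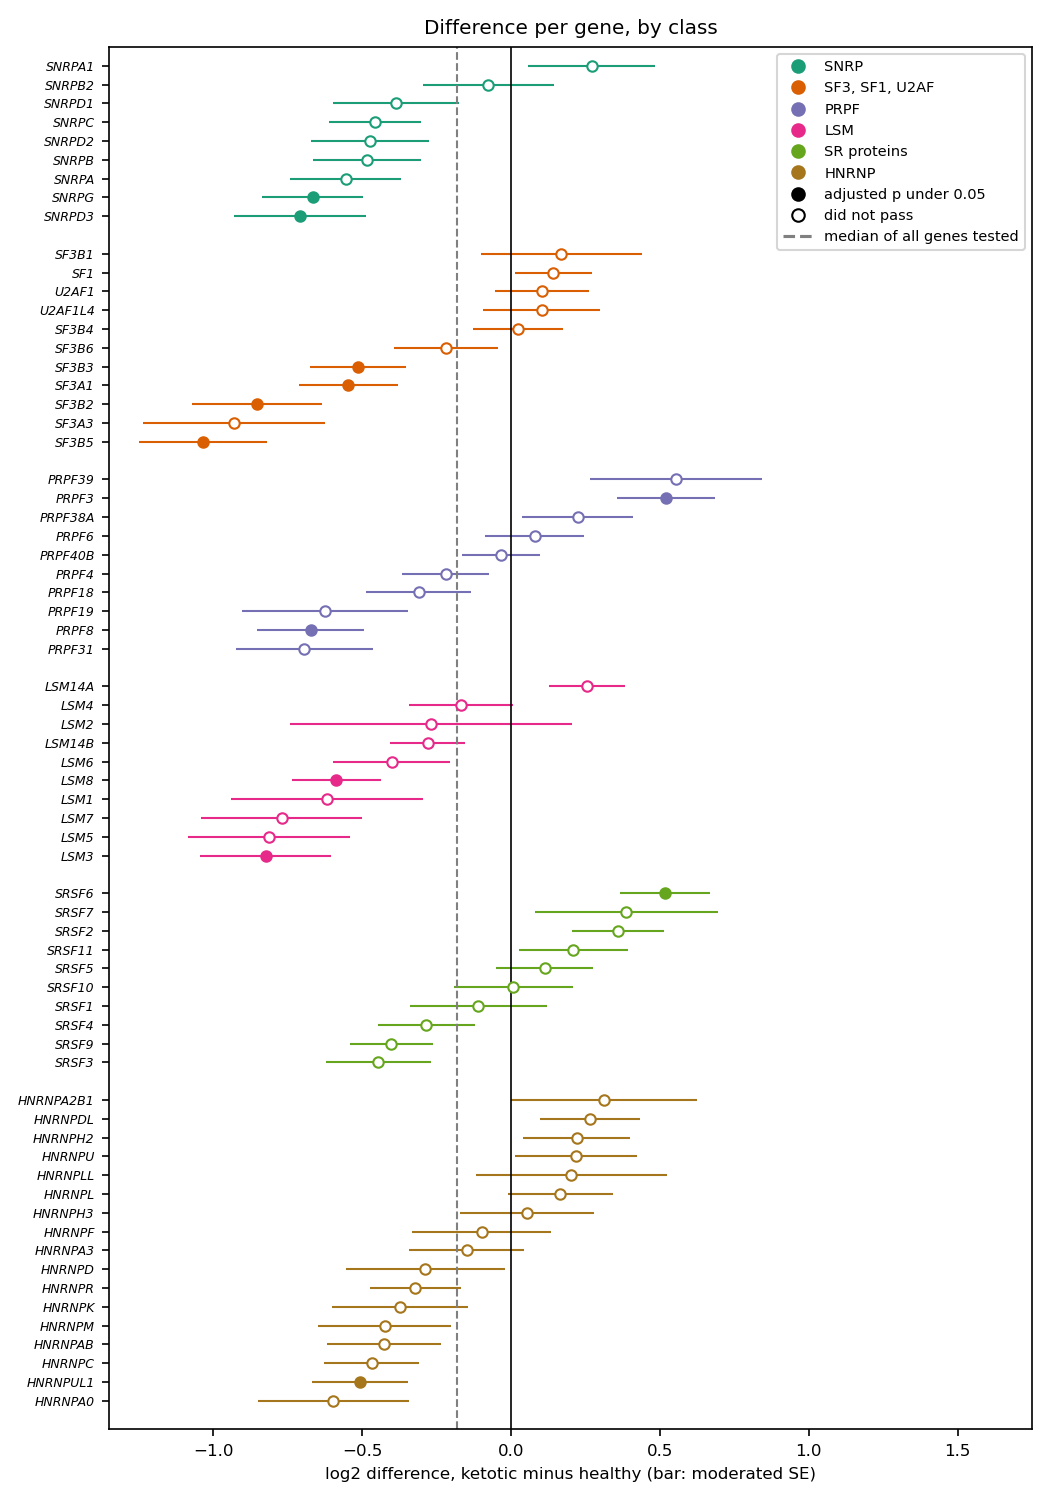
Log2 difference, ketotic minus healthy (horizontal axis), with limma's moderated standard error, for each of the 67 genes grouped by class. Filled points passed the test; 9 of 10 LSM genes and 8 of 9 SNRP genes lie left of 0, while 6 of 10 SR genes lie right of it.

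The SNRP genes encode proteins of the small nuclear ribonucleoproteins. SNRPG and SNRPD3, both subunits of the Sm ring that encircles U1, U2, U4 and U5 RNA, fell in ketotic livers. SNRPG had log2 ratios of -2.54 to -1.84 in ketotic cows (median -2.03, n = 7), against -1.75 to -0.94 in healthy cows (median -1.41, n = 6). Every ketotic cow lay below every healthy cow. Its log2 difference was -0.67 ± 0.168 (SE), or 1.59-fold lower, with an adjusted p of 0.0198 in limma, and it passed with any 1 of the 14 cows left out. The call was lost with the arrays scaled to one spread (difference -0.35, adjusted p 0.177) or quantile normalised (difference -0.45, adjusted p 0.0756). Over all genes, ketotic cows lay wholly below healthy cows for 5.39% and wholly above for 0.316%; in the set this held for 4 genes below and 1 above, again near the array as a whole. Without healthy cow 7 it held for 6 genes below and 1 above, against 8.49% and 0.489% of all genes.

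SNRPD3 had log2 ratios of -2.08 to -0.33 in ketotic cows (median -0.87) and -0.52 to -0.07 in healthy cows (median -0.40). The groups overlapped, yet every ketotic cow but the highest lay below the healthy median. The log2 difference was -0.71 ± 0.223 (SE), 1.63-fold lower, with an adjusted p of 0.0468 in limma. That call was lost when any cow was left out except ketotic cows 4 and 6 and healthy cow 7, with adjusted p of 0.0562 to 0.0919. The SNRPD3 difference was -0.53 at one spread (adjusted p 0.0911).

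The other Sm ring genes, SNRPB, SNRPD1 and SNRPD2, did not pass. SNRPB had a log2 difference of -0.48 ± 0.181 (SE; limma adjusted p 0.0932), with ketotic values of -2.55 to -1.26 and healthy values of -1.64 to -1.21. SNRPD2 differed by -0.47 ± 0.198 (adjusted p 0.129), with log2 ratios of -2.48 to -1.26 in ketotic and -1.42 to -0.53 in healthy cows. SNRPD1 differed by -0.39 ± 0.211 (adjusted p 0.247), with log2 ratios of -2.58 to -1.75 in ketotic and -2.23 to -1.13 in healthy cows. All 5 Sm ring genes on the array thus had differences below 0, with a median of -0.48, though SNRPD1 stood at 0.0027 once all arrays were scaled to one spread.

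SNRPA and SNRPC, proteins of the U1 particle that recognises the 5′ splice site, had adjusted p just above the threshold. SNRPA ran from -2.95 to -1.66 (log2 ratio, median -1.79) in ketotic cows, and from -1.56 to -1.14 (median -1.38) in healthy cows. No ketotic cow reached the lowest healthy one, but ketotic cow 5 lay far below the others. The log2 difference of SNRPA was -0.56 ± 0.186 (SE; limma adjusted p 0.0602), and without ketotic cow 5 it was -0.39 with an adjusted p of 0.0406. SNRPC had log2 ratios of -1.51 to -0.70 (median -0.92) in ketotic cows, against -0.95 to -0.30 (median -0.60) in healthy cows. Only healthy cow 7 made its groups overlap. The log2 difference of SNRPC was -0.46 ± 0.154 (adjusted p 0.0610), and -0.52 without healthy cow 7 (adjusted p 0.0209).

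SNRPA1 and SNRPB2, both proteins of the U2 particle, differed little beside their spread. SNRPA1 had log2 ratios of -0.14 to 0.47 in ketotic cows (n = 6) and -0.62 to 0.75 in healthy cows, with a difference of 0.27 ± 0.213 (SE; limma adjusted p 0.440). SNRPB2 ran from -1.72 to -0.46 in ketotic and from -1.32 to -0.40 in healthy cows, with a difference of -0.08 ± 0.221 (adjusted p 0.867). The sign of SNRPB2 turned under several scalings and without healthy cow 7, and that of SNRPA1 turned with the arrays left as deposited.

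**Figure D2:**
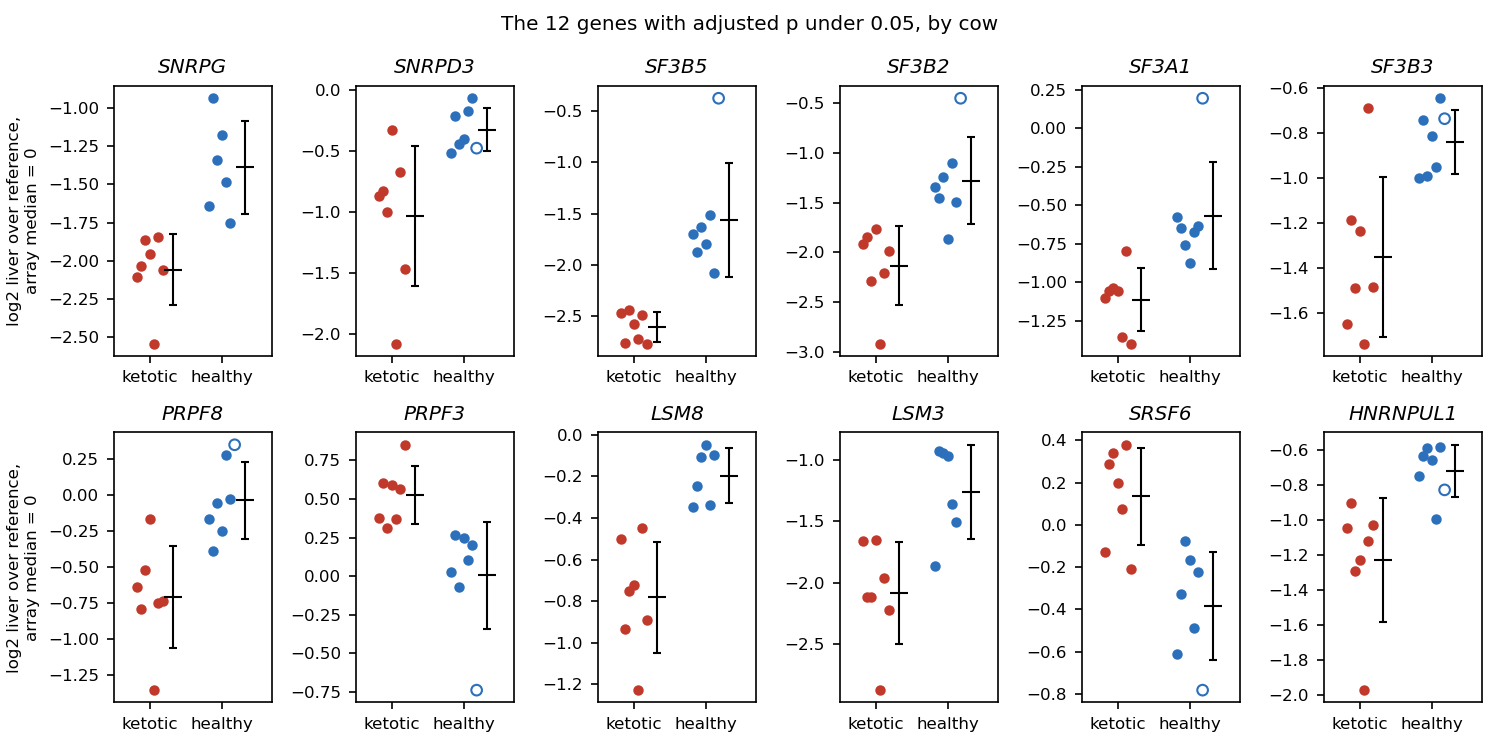
Log2 ratio of liver over reference RNA (vertical axis, array median at 0) in each ketotic cow (red) and healthy cow (blue) for the 12 genes that passed, with mean and SD beside the points. Open circles are healthy cow 7, which sits far above the other healthy cows for SF3B5 and SF3A1 and far below them for PRPF3.

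Within the class that recognises the branch point and the 3′ splice site, all falls were among SF3A and SF3B genes. SF3A1, a scaffold of the SF3A complex, SF3B2, SF3B3 and SF3B5, subunits of the SF3B complex, fell in ketotic livers. SF3B1, the large subunit that contacts the branch region, and SF3B4 did not pass.

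SF3B5 had the largest difference of the set. Its log2 ratios were -2.76 to -2.43 (median -2.58) in ketotic cows, and -2.08 to -0.38 (median -1.69) in healthy cows. The groups did not overlap, and healthy cow 7 lay far above the other healthy cows, which ended at -1.52. The log2 difference was -1.04 ± 0.215 (SE), 2.05-fold lower, with an adjusted p of 0.00780 in limma, and -0.84 without healthy cow 7 (adjusted p 0.00134). SF3B5 passed with any 1 cow left out, but it rests on 1 of its 2 probes. The other probe had values in 4 ketotic cows, at 0.06 to 2.02 on the log2 ratio scale, and in 5 healthy cows, at -0.13 to 1.09, too few to be tested. Where fewer values were required, so that both probes counted, the difference of SF3B5 was -0.67 (adjusted p 0.156), and with cows of a single array kept it was -0.21 (adjusted p 0.745). With ratios at the ceiling of the table kept it was -0.26 (adjusted p 0.846). Scaled to one spread the SF3B5 difference was -0.62 (adjusted p 0.149), while it passed with quantile normalisation.

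SF3B2 had log2 ratios of -2.92 to -1.77 in ketotic cows (median -1.98), against -1.86 to -0.45 in healthy cows (median -1.34). The groups met only where the lowest healthy cow fell among the highest ketotic cows. The difference was -0.85 ± 0.219 (SE), 1.81-fold lower, with an adjusted p of 0.0199 in limma, and it passed with any 1 cow left out. The SF3B2 call was lost at one spread (difference -0.50, adjusted p 0.222) and with quantile normalisation (difference -0.65, adjusted p 0.0740).

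SF3A1 had log2 ratios of -1.40 to -0.79 in ketotic cows (median -1.06) and -0.88 to 0.19 in healthy cows (median -0.64). Healthy cow 7 was the highest, and the other healthy cows ended at -0.58. The log2 difference of SF3A1 was -0.55 ± 0.167 (SE; limma adjusted p 0.0422), and -0.42 without healthy cow 7 (adjusted p 0.0268). The call was lost when any cow was left out except ketotic cow 6 and healthy cows 4 and 7, with adjusted p of 0.0518 to 0.0832.

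SF3B3 ran from -1.74 to -0.69 (log2 ratio, median -1.48) in ketotic cows, and from -0.999 to -0.64 (median -0.81) in healthy cows. One ketotic cow lay among the healthy cows and the other 6 lay below them all. Its log2 difference was -0.51 ± 0.161 (SE; limma adjusted p 0.0467), and the call was lost when any cow was left out except ketotic cow 6 and healthy cow 7, with adjusted p of 0.0567 to 0.0891.

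SF3A3, the second SF3A subunit on the array, had the next largest difference after SF3B5, -0.93 ± 0.306 (log2, SE), but missed the threshold with an adjusted p of 0.0560 in limma. Its log2 ratios were -2.26 to -1.03 in ketotic and -1.43 to 0.51 in healthy cows, and healthy cow 7 was again the highest. Without healthy cow 7 the SF3A3 difference was -0.72 (adjusted p 0.0587). The remaining genes of the class showed smaller differences. SF3B6, which binds at the branch point, differed by -0.22 (adjusted p 0.442), SF3B1 by 0.17 (0.738) and SF3B4 by 0.02 (0.940). SF1, which recognises the branch point before the U2 particle arrives, differed by 0.14 (adjusted p 0.518). U2AF1, the small U2AF subunit that reads the 3′ splice site, differed by 0.10 (adjusted p 0.723), and its paralog U2AF1L4 by 0.10 (0.789). SF1 and the U2AF genes are the first to bind an intron's 3′ end, and none of these 3 had a difference below 0. Healthy cow 7 moved several of these values. Without it SF3B1 turned to -0.07 (limma adjusted p 0.831), SF3B6 stood at -0.34 (0.0946) and SF3B4 at 0.08 (0.731). U2AF1 then stood at 0.03 (0.898), U2AF1L4 at 0.01 (0.978) and SF1 at 0.11 (0.582).

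Among the PRPF genes 1 fell and 1 rose, and both encode tri-snRNP proteins. PRPF8, the large U5 protein at the catalytic centre of the spliceosome, had log2 ratios of -1.36 to -0.17 (median -0.73) in ketotic cows and -0.39 to 0.35 (median -0.05) in healthy cows. All but the highest ketotic cow lay below the lowest healthy one. The log2 difference of PRPF8 was -0.67 ± 0.179 (SE), 1.60-fold lower, with an adjusted p of 0.0233 in limma, and it passed with any 1 cow left out. It missed the threshold with arrays centred on the probes that had a value on all 28 arrays (difference -0.54, adjusted p 0.0551).

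PRPF3, a U4/U6 protein, had log2 ratios of 0.31 to 0.85 in ketotic cows (median 0.57), against -0.74 to 0.27 in healthy cows (median 0.10). Every ketotic cow lay above every healthy cow, and healthy cow 7 lay far below the rest. The log2 difference of PRPF3 was 0.52 ± 0.165 (SE; limma adjusted p 0.0484), or 0.40 without healthy cow 7 (adjusted p 0.0336). The call was lost when any cow was left out except ketotic cow 3 and healthy cows 2, 4 and 7, with adjusted p of 0.0563 to 0.0956. With the arrays as deposited the PRPF3 difference was 0.12 (adjusted p 0.703), and at one spread 0.49 (adjusted p 0.123).

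The other PRPF genes did not pass. PRPF31, a U4/U6 protein needed for the tri-snRNP to form, had the class's largest difference at -0.69 ± 0.231 (log2, SE; limma adjusted p 0.0584). Its log2 ratios were -2.47 to -0.75 in ketotic and -0.77 to -0.28 in healthy cows, with ketotic cow 5 lowest. Both PRPF31 probes pointed down, with differences of -0.75 and -0.68. Without ketotic cow 5 the PRPF31 difference was -0.49 (adjusted p 0.0461), and without healthy cow 7 it was -0.73 (adjusted p 0.0424). PRPF39, linked to the U1 particle, differed by 0.55 ± 0.290 (adjusted p 0.228) and PRPF19, the ubiquitin ligase of the activated spliceosome, by -0.62 ± 0.278 (adjusted p 0.153). PRPF18, PRPF4, PRPF38A, PRPF6 and PRPF40B lay between -0.31 and 0.22. Healthy cow 7 had the highest healthy log2 ratio of PRPF19, 0.91, and without it the PRPF19 difference was -0.35 (adjusted p 0.0999). Without that cow PRPF6 stood at 0.19, against 0.08 with it, and PRPF40B at 0.02, against -0.03.

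The LSM genes include the 7 subunits of the LSM2 to LSM8 ring, which binds the end of U6 RNA. The differences of all 7 lay below 0 with a median of -0.59, and LSM3 and LSM8 fell. LSM8, the subunit that marks the nuclear ring, had log2 ratios of -1.23 to -0.45 in ketotic cows (median -0.75), and -0.35 to -0.05 in healthy cows (median -0.17, n = 6). The groups did not overlap. The log2 difference of LSM8 was -0.59 ± 0.150 (SE), 1.50-fold lower, with an adjusted p of 0.0208 in limma. LSM8 passed with any 1 cow left out, and also with the arrays scaled to one spread (adjusted p 0.0389) or quantile normalised (adjusted p 0.0410). The call was lost where cows of a single array were kept (difference -0.42, adjusted p 0.215), and on each dye alone, with liver in Cy3 (-0.50, 0.153) or in Cy5 (-0.50, 0.188).

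LSM3 had log2 ratios of -2.87 to -1.65 (median -2.11) in ketotic cows and -1.86 to -0.93 (median -1.16, n = 6) in healthy cows. One healthy cow lay among the ketotic cows and the other 5 lay above them all. The log2 difference was -0.82 ± 0.221 (SE), 1.77-fold lower, with an adjusted p of 0.0253 in limma. It missed the threshold without healthy cow 2 (adjusted p 0.0533) or healthy cow 3 (adjusted p 0.0556). The call was also lost at one spread (difference -0.49, adjusted p 0.173), with quantile normalisation (-0.60, 0.0831) and with cows of a single array kept (-0.67, 0.110).

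LSM5 and LSM7, further ring subunits, had log2 differences of -0.81 ± 0.272 (SE; limma adjusted p 0.0599) and -0.77 ± 0.272 (adjusted p 0.0733). LSM5 ran from -2.21 to -1.59 (log2 ratio) in ketotic and from -1.67 to 0.44 in healthy cows, and without healthy cow 7, the highest, its difference was -0.55 with an adjusted p of 0.0147. LSM6, LSM4 and LSM2 differed by -0.40 (adjusted p 0.192), -0.17 (0.576) and -0.27 (0.767), and LSM2 had values in only 5 ketotic and 6 healthy cows. LSM2 to LSM7 occur in both known rings.

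LSM1 takes the place of LSM8 in the cytoplasmic ring that works in mRNA decay. Its log2 ratios were -2.39 to 0.23 (median -1.45) in ketotic cows and -1.59 to -0.30 (median -0.79) in healthy cows, and the highest ketotic value came from cow 5. The LSM1 difference was -0.62 ± 0.322 (log2, SE; limma adjusted p 0.224), or -0.89 without ketotic cow 5 (adjusted p 0.0232). LSM14A and LSM14B, which act on mRNA translation and processing bodies, differed by 0.26 (adjusted p 0.202) and -0.28 (adjusted p 0.155). Taken cow by cow, the median over the LSM genes, each first centred on its mean over cows, was -0.47 to -0.02 in the ketotic cows and 0.15 to 0.40 in the healthy cows. The same median over all genes was -0.31 to 0.01 in ketotic and 0.07 to 0.14 in healthy cows, and the groups did not overlap there either.

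**Figure D3:**
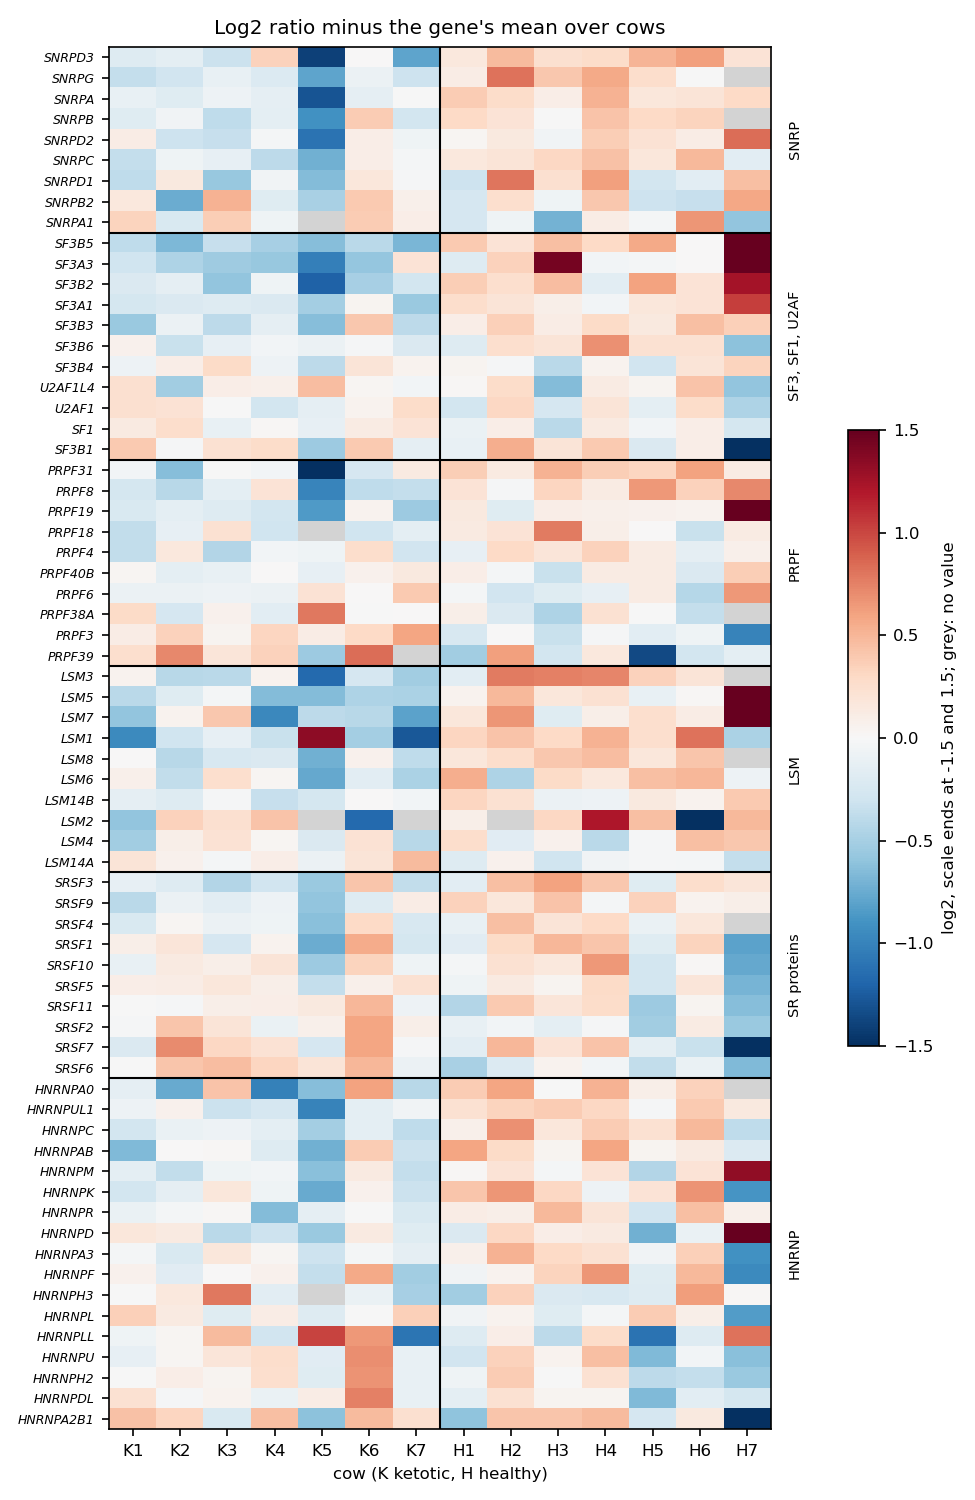
Log2 ratio of each gene (rows, by class) in each cow (columns, K1 to K7 ketotic and H1 to H7 healthy) minus the gene's mean over cows. Ketotic cow 5 is the lowest ketotic cow for 39 genes, and healthy cow 7 shows both the lowest (23 genes) and the highest (17 genes) values of its group.

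Of the 10 SR genes 6 had differences above 0, or 5 of 10 without healthy cow 7, the same number as among the PRPF genes without that cow. SRSF6 rose. SRSF6, an SR protein that acts in constitutive and regulated splicing, had log2 ratios of -0.21 to 0.38 in ketotic cows (median 0.20), against -0.78 to -0.08 in healthy cows (median -0.32). Most ketotic cows lay above all healthy cows. The log2 difference was 0.52 ± 0.151 (SE), 1.43-fold higher, with an adjusted p of 0.0352 in limma. The call was lost without ketotic cow 2, 3, 4 or 6 or healthy cow 1, 2 or 5, with adjusted p of 0.0516 to 0.0733, and held without healthy cow 7 (difference 0.45). With the arrays as deposited SRSF6 differed by 0.12 (adjusted p 0.697), and scaled to one spread by 0.58 (adjusted p 0.0397).

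The other SR genes went both ways without passing. SRSF9 differed by -0.40 ± 0.139 (log2, SE; limma adjusted p 0.0668), SRSF3, the smallest SR protein, by -0.45 ± 0.176 (adjusted p 0.107), SRSF4 by -0.28 (0.274) and SRSF1 by -0.11 (0.807). SRSF2, an activator of exon inclusion, differed by 0.36 ± 0.155 (adjusted p 0.138), SRSF7 by 0.39 (0.445), SRSF11 by 0.21 (0.497), SRSF5 by 0.11 (0.703) and SRSF10 by 0.01 (0.988). SRSF9 had log2 ratios of -1.67 to -0.97 in ketotic and -1.11 to -0.65 in healthy cows, and passed without healthy cow 7 (difference -0.42, adjusted p 0.0435). SRSF9 rests on 1 of its 2 probes, as the other had values in only 3 ketotic and 3 healthy cows. With fewer values required, so that both counted, SRSF9 differed by -0.12 (adjusted p 0.796), and with cows of a single array kept by 0.20 (adjusted p 0.726).

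Healthy cow 7 also moved the smaller SR differences. Without it SRSF7 stood at 0.11 (limma adjusted p 0.735), SRSF11 at 0.12 (0.666) and SRSF5 at 0.0067 (0.983). SRSF10 turned to -0.12 (0.664), and SRSF1 stood at -0.25 (0.401). Without ketotic cow 5 SRSF1 turned to 0.0055.

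Among the 17 HNRNP genes only HNRNPUL1 passed. HNRNPUL1, an hnRNP U relative with a part in DNA damage signalling, had log2 ratios of -1.97 to -0.90 (median -1.12) in ketotic cows and -0.99 to -0.58 (median -0.66) in healthy cows. Ketotic cow 5 lay far below the others, and the groups overlapped narrowly. The log2 difference was -0.51 ± 0.161 (SE), 1.42-fold lower, with an adjusted p of 0.0487 in limma. It was lost when any cow was left out except ketotic cow 2 and healthy cows 5 and 7, with adjusted p of 0.0532 to 0.0891. At one spread HNRNPUL1 differed by -0.29 (adjusted p 0.222).

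HNRNPA0 had the class's largest difference, -0.60 ± 0.254 (log2, SE; limma adjusted p 0.137), with log2 ratios of -3.42 to -1.80 in ketotic and -2.42 to -1.82 in healthy cows (n = 6). HNRNPC, which binds uridine tracts of nascent transcripts, differed by -0.47 ± 0.160 (adjusted p 0.0644). HNRNPC had log2 ratios of -1.72 to -1.28 in ketotic and -1.58 to -0.52 in healthy cows. Only healthy cow 7 made the HNRNPC groups overlap, and without that cow the difference was -0.57 (adjusted p 0.00859). HNRNPK, which binds cytidine-rich tracts, differed by -0.37 (adjusted p 0.302), and by -0.55 without healthy cow 7 (adjusted p 0.0334).

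The rest of the HNRNP class did not pass with or without healthy cow 7. HNRNPAB, HNRNPR, HNRNPM, HNRNPD, HNRNPA3 and HNRNPF had differences of -0.43 to -0.10. HNRNPA2B1, HNRNPDL, HNRNPH2, HNRNPU, HNRNPLL, HNRNPL and HNRNPH3 had differences of 0.05 to 0.31. Their adjusted p in limma ran from 0.156 (HNRNPAB) to 0.910 (HNRNPH3). HNRNPL and HNRNPLL, paralogs that bind CA-rich RNA, differed by 0.17 and 0.20, and by 0.04 and 0.35 without healthy cow 7. Without that cow HNRNPM stood at -0.24 (adjusted p 0.296), HNRNPA3 at -0.31 (0.0983), HNRNPF at -0.27 (0.348) and HNRNPD at -0.06 (0.848), while HNRNPA2B1 stood at 0.06 (0.890).

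How the arrays were scaled moved the whole set. The median difference of all genes was -0.58 with the arrays as deposited, where 33 of the 67 genes fell and none rose, while 35.4% of all genes passed lower and 0.158% higher. It was -0.05 with arrays centred on the probes that had a value on all 28 arrays, where 5 genes of the set fell and 2 rose, against 7.09% and 1.77% of all genes. With arrays scaled to one spread 2 fell and 1 rose, against 7.40% and 0.503% of all genes. With quantile normalisation 3 fell and 1 rose, against 7.72% and 0.359% of all genes. The LSM and SNRP medians were below that of all genes in each of these scalings, the SNRP median only narrowly at one spread (-0.166 against -0.156). The HNRNP median changed sign, to 0.04 with one spread and 0.06 with quantile normalisation, and the PRPF median was 0.0042 when centred on the same probes.

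**Figure D4:**
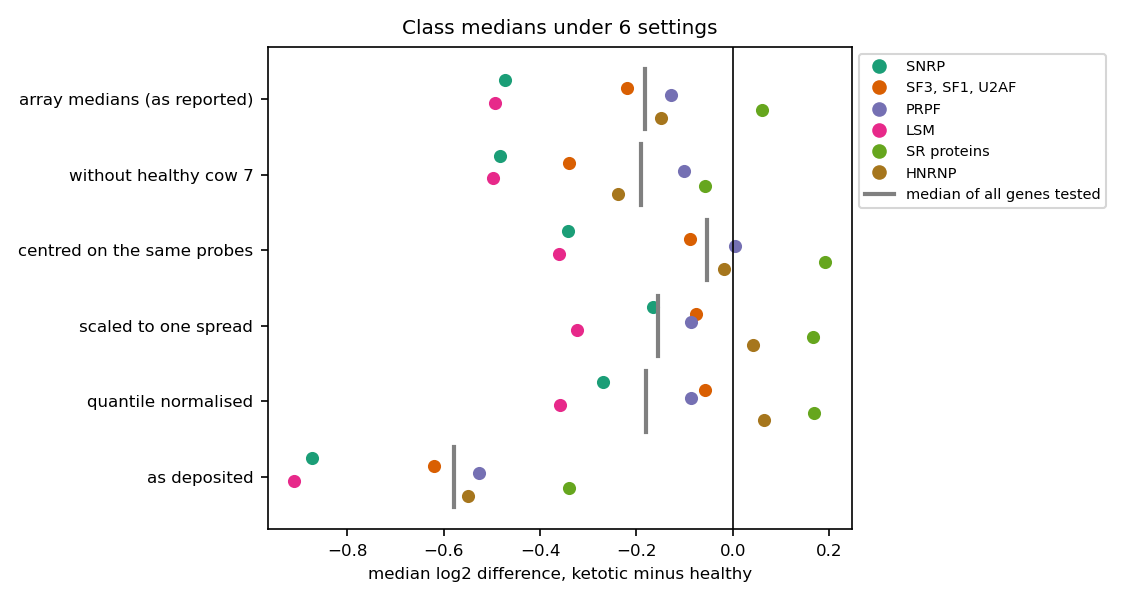
Median log2 difference, ketotic minus healthy (horizontal axis), of each class under 6 settings, with the median of all tested genes as a grey bar. LSM and SNRP genes lie left of the grey bar in all 6, SNRP genes only narrowly at one spread. SR and PRPF genes lie right of it in all 6. The SR, PRPF and HNRNP medians each lie on both sides of 0 across the settings.

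The values of ketotic cows were more widely spread. The median absolute deviation of a cow's log2 ratios over all probes was 1.27 ± 0.192 in ketotic cows and 0.992 ± 0.125 in healthy cows (SD, n = 7 each; exact permutation p 0.00932 two-sided, 0.0373 adjusted over 4 measures). Spots without a value or at the ceiling of the table are called empty here and below. Empty spots made up 16.5% ± 4.49 of ketotic and 11.9% ± 2.80 of healthy arrays (exact permutation p 0.0338, adjusted 0.0559). For spots of the set they made up 2.98% and 2.33% (exact permutation p 0.586). When limma also held each cow's percentage of empty spots as a covariate, none of the 67 genes passed. Of all genes 2.30% passed lower and 0.115% higher in that fit. In the set 11 genes had an unadjusted p under 0.05 in limma. That count was not taken over all genes, so it is not a result about the set. The part of the spread in the results was not tested.

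Most genes of the set had a low ratio to the tissue pool. The healthy mean was below 0 for 58 of the 67 genes, or 86.6%, against 53.9% of all tested genes. Differences ran with this ratio: in the 33 genes with the lower mean log2 ratio over all cows, 29 differences were below 0, the median was -0.45, and 6 fell. In the other 34 genes 14 differences were below 0, the median was 0.09, and 4 fell and 2 rose. Over all genes those below and above the middle ratio had medians of -0.35 and -0.03. Of the 3479 genes below it 2827 differences were below 0, and 647 fell and 7 rose. Of the 3479 above it 1846 were below 0, and 218 fell and 57 rose. The counts of the set are thus to be read beside those of the array. Across genes, which share the same arrays, Pearson's r between mean log2 ratio and difference was 0.646 over the 67 genes and 0.364 over all genes, given as a description. The mean log2 ratio includes the ketotic cows, whose values also enter the difference, so ratio and difference are not independent.

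**Figure D5:**
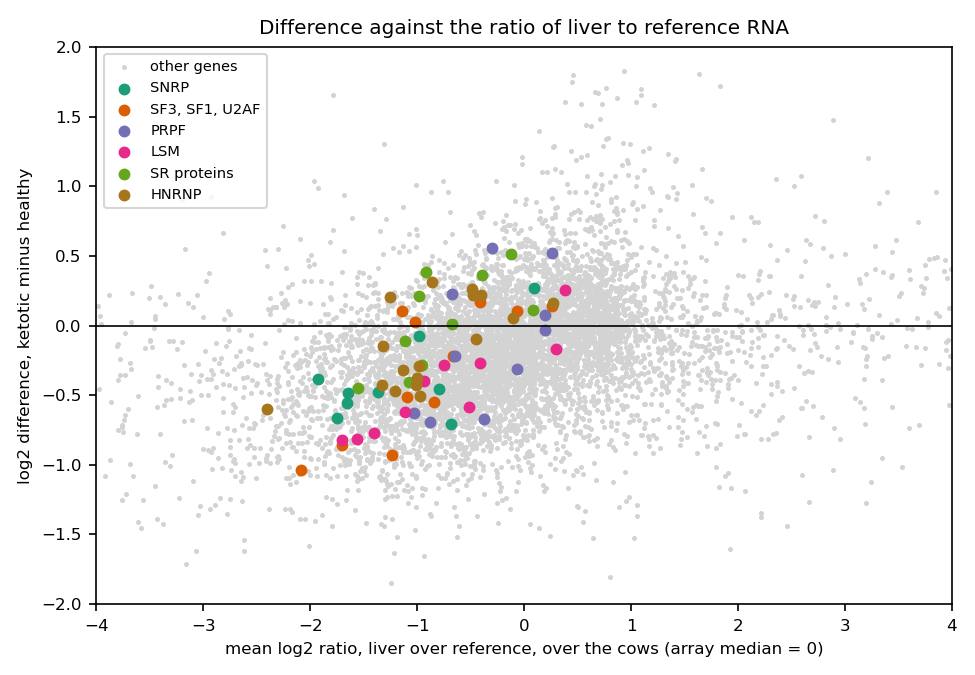
Log2 difference, ketotic minus healthy (vertical axis), against the mean log2 ratio of liver over reference RNA over the cows (horizontal axis), for the 67 genes in colour by class and other tested genes in grey, with 150 genes outside the plotted range. Genes with lower ratios tend to lie further below 0, as the r of 0.646 describes.

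Other genes of the splicing pathway were counted from lists drawn up from textbook composition. Of 66 tested spliceosome genes outside the set 8 fell and none rose, or 12.1%, close to the 12.4% of all genes, with a median difference of -0.26. Without healthy cow 7 these were 11 lower and 2 higher, or 16.7% lower, against 18.4% of all genes. PPIH, a cyclophilin of the U4/U6 particle, had log2 ratios of -4.07 to -1.92 in ketotic and -1.51 to -1.05 in healthy cows, with a difference of -1.58 ± 0.288 (SE; limma adjusted p 0.00433). SNU13, which binds U4 RNA and recruits PRPF31, differed by -0.97 ± 0.176 (adjusted p 0.00433), with log2 ratios of -2.30 to -1.24 in ketotic and -1.29 to -0.75 in healthy cows. PPIH groups did not overlap and SNU13 groups overlapped narrowly.

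Of 14 genes for assembly of these particles 1 fell, PRMT5, the methyltransferase that modifies Sm proteins, by -0.88 ± 0.222 on the log2 scale (SE; limma adjusted p 0.0188). Of 36 other splicing regulators and RNA-binding proteins 4 fell and none rose, led by PCBP2 (difference -0.68, adjusted p 0.00523) and YBX1 (difference -0.89, adjusted p 0.0113). Of 21 genes for cleavage, polyadenylation and mRNA export 2 fell, the endonuclease gene CPSF3 (difference -0.74, adjusted p 0.00715) and the export factor gene NXT1 (difference -0.90, adjusted p 0.0415). NXT1 differed by -0.65 without healthy cow 7 (adjusted p 0.0155) and by -0.81 without ketotic cow 5 (adjusted p 0.0808). These shares were near or below that of all genes. None of 18 mRNA decay genes passed in limma, 3 had an unadjusted p under 0.05, and UPF1, the helicase of nonsense-mediated decay, came nearest with a difference of -0.34 (adjusted p 0.126).

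RNA polymerase II and general factors had 9 of 22 genes lower and none higher, or 40.9%, against 12.4% of all genes. The count was 9 of 22 without healthy cow 7, where 18.4% of all genes were lower. It was 5 of 22, or 22.7%, without ketotic cow 5, where 9.85% of all genes were lower. The list was drawn up with earlier results of these data known, so its share was not tested. POLR2F fell by 1.42 ± 0.235 (log2, SE; limma adjusted p 0.00308) and POLR2J by 0.78 ± 0.119 (adjusted p 0.00250), both small subunits of the polymerase. Ketotic and healthy cows did not overlap for either gene.

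Markers of other cell types moved beside the set. Of 9 macrophage markers 4 fell and none rose in ketotic livers, with per-cow medians of 0.92 to 2.71 in ketotic and 0.49 to 3.08 in healthy cows on the log2 ratio scale. Healthy cow 7 was the lowest, and without it 5 macrophage markers fell. Of 19 hepatocyte markers 2 rose and none fell, among them ALB with a difference of 1.62 ± 0.426 (limma adjusted p 0.0228), and the per-cow medians were 5.37 to 6.78 in ketotic and 3.15 to 7.02 in healthy cows. Healthy cow 7 held the lowest of these medians, and the other healthy cows began at 5.09. Without healthy cow 7 the ALB difference was 1.60 (adjusted p 0.0233), and 2 hepatocyte markers rose and 1 fell. Of 6 lymphocyte markers 2 fell and 1 rose, of 6 bile duct markers 1 fell, and of 5 neutrophil markers 1 rose. No marker of stellate cells, endothelium, blood, muscle or brain passed in limma among 13, 6, 2, 5 and 5 tested, with 3, 1, 1, 1 and 0 at an unadjusted p under 0.05. Without healthy cow 7, 1 of 13 stellate markers fell, 1 of 5 brain markers rose and 2 of 5 bile duct markers fell. None of 4 neutrophil markers passed then. The part of these cell types and tissues in the differences of the splicing genes was not tested.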

How the data were processed

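Liver RNA of 7 ketotic and 7 healthy cows was measured on 28 two-colour cDNA arrays, 2 dye-swapped arrays per cow, per the labels. The authors deposited a log2 ratio of both channels for each of 27648 spots; their background correction and normalisation were not given in the sources used. Array medians of -1.06 to 2.12 showed no centring. Signs were turned on arrays whose liver RNA was in Cy3, so that values are liver over reference. The direction is likely rather than certain, and rests on the titles' dyes and on liver markers. Values from the ceiling of 16.6 upward (6245) and empty cells (103458) were read as not measured. Spot pairs were averaged to 13824 probes, each array was centred on its probe median, and a cow needed both arrays.

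Probes needed 5 cows per group, and a gene was the mean of its centred probes. Of the probes, 8645 had 1 symbol and 105 several; none was named from several. Groups were compared in R 4.3.3 with limma 3.58.1 (lmFit, eBayes, two-sided, Benjamini-Hochberg over 6958 genes), with the moderated SE as error. The fit was tested on simulated data, where 10.9% of log2 differences of 0.5 passed, 58.7% of those of 1 and 91.7% of those of 2. Of the simulated calls 5.93% were false. A gene that did not pass may thus still differ. Genes were simulated independently of each other, with no cow standing apart. No coordinates or sequences are given, since no build of the array is named. Quality measures used exact permutation over cows, with a smallest possible p of 0.000583. Replicate numbers only name cows, and where nothing says that cows were sampled in batches none was tested. Precision is limited by the 7 cows per group, since both arrays of a cow count as 1 replicate.

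The members and lists were chosen with earlier results of these data known. Named are all passing genes, each class's smallest p and largest difference, all SNRP genes, and up to 2 genes of each pathway list by smallest p; other members named beside them were chosen after their values were seen. Alternatives covered scaling, dyes, filters, weights, a covariate and each cow left out. Figures used matplotlib 3.10.9.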

Additional observations from a re-analysis of the deposited data

Results flagged for a closer look

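A search of 162 groups of values, 1 per gene or quality measure and group of cows, found 22 in which the highest or lowest cow lay far from the rest; chance gives about 1 in 20, or 8.1 of these groups. Healthy cow 7 accounted for 12 of the 22. It was the highest healthy cow on the log2 ratio scale for SF3B5 (-0.38), SF3A1 (0.19), PRPF19 (0.91), LSM5 (0.44), HNRNPM (0.32) and NXT1 (-0.11). It was the lowest healthy cow for SF3B1 (-1.91), PRPF3 (-0.74), SRSF7 (-2.76) and HNRNPA3 (-2.22). It also had the most empty spots for genes of the set, 7.64%, against at most 1.74% in the other healthy cows, and the widest interquartile range of their log2 ratios, 1.30, against at most 0.933. Those empty spots of healthy cow 7 were all on its array with liver in Cy5, 15.3%, against 0% with liver in Cy3.

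Ketotic cow 5 was the lowest ketotic cow for SNRPG (-2.54), SNRPA (-2.95), SNRPD2 (-2.48), SRSF5 (-0.27) and HNRNPUL1 (-1.97). Ketotic cow 6 was the highest ketotic cow for SRSF11 (-0.49) and HNRNPDL (0.27), and ketotic cow 4 the lowest for HNRNPR (-1.78). Healthy cow 6 was the lowest healthy cow for LSM2 (-2.21) and healthy cow 4 the lowest for PPIH (-1.51).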

How the results depend on the processing

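Counts are given as genes of the set lower and higher, against 10 and 2 as reported. They were 33 and 0 with arrays as deposited, 5 and 2 centred on shared probes, 2 and 1 at one spread, 3 and 1 with quantile normalisation, 7 and 0 with liver in Cy3 alone, 0 and 0 with liver in Cy5 alone (16 at an unadjusted p under 0.05 in limma, and 0.157% of all genes passing), 3 and 1 with single arrays kept, 5 and 1 with at least 2 cows per group, 11 and 2 with values in all 14 cows, 19 and 2 with weights per cow (20.3% of all genes passing), 0 and 0 with empty spots as a covariate, and 6 and 2 with arrays centred on spot medians, which was chosen after seeing the data. With values in all 14 cows, only 55 genes of the set were tested. The share of all genes passing was 9.28% with liver in Cy3 alone and 9.41% with single arrays kept. It was 10.2% with at least 2 cows per group, 16.9% with values in all 14 cows and 12.04% with spot medians. With single cows left out the counts of the set ran from 5 to 16 lower and from 0 to 2 higher. The share of all genes passing then ran from 9.44% (without healthy cow 6) to 19.9% (without healthy cow 7). The count lower was 6 without ketotic cow 1 or healthy cow 6, 5 without healthy cow 2 or 3, and 16 without healthy cow 7. The set's median difference was -0.65 as deposited and -0.089 at one spread. Class medians as deposited were -0.87 (SNRP), -0.62 (SF3, SF1 and U2AF), -0.53 (PRPF), -0.91 (LSM), -0.34 (SR) and -0.55 (HNRNP). The PRPF median was 0.0042 on shared probes, -0.26 in Cy3 and -0.22 with all 14 cows. The LSM median was -0.36 on shared probes, -0.32 at one spread, -0.36 with quantile normalisation and -0.37 in Cy3. At one spread the SNRP median was -0.17, and with quantile normalisation the SF3, SF1 and U2AF median was -0.058. SNRPA1 turned to -0.067 as deposited and SNRPD1 to 0.0027 at one spread. SNRPB2 turned to 0.055 on shared probes, 0.11 at one spread, 0.091 with quantile normalisation, 0.14 in Cy3, 0.052 with weights, 0.16 with the covariate, 0.041 without ketotic cow 2 and 0.014 without healthy cow 7. The causes were not tested. Among single genes, 715 comparisons with an alternative kept direction and side of the threshold, 174 lost the threshold and 24 gained it. No paired analysis was possible because the replicate numbers only name cows and pair none across the groups. No scanner intensities were used, so dim spots could not be told from bright ones.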
